A study of Mus musculus with 2 samples.

Results

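The capillary lymphatic identity genes are 5 genes known to mark the blind-ended capillaries of the lymphatic tree: Lyve1, Reln, Mmrn1, Pdpn and Stmn2. They were taken by name from 23521 measured genes by a rule that sets no threshold on a measured value, though with earlier results of these data known, and all 5 have a row in the tables of both ages. The study pooled the afferent lymphatics of the submandibular lymph nodes of 6 mice into 1 single-cell library at each age, one of aged mice (93 weeks) and one of adult mice (12 weeks). All mice were of the FVB/N strain and carried Prox1-GFP, a reporter in which green fluorescent protein follows Prox1, the transcription factor that fixes lymphatic fate. The tissue, called the superficial cervical lymphatic system in the labels, was dissociated, sorted by flow cytometry and made into 10x Genomics 3' libraries, and the series title concerns drainage of cerebrospinal fluid through these vessels. With 1 pooled library per age no difference between the ages can be tested, and each interval given here covers counting error only.

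Lymphatic capillaries take up fluid, cells and particles through loosely joined endothelium, and collecting vessels then carry the lymph onward behind smooth muscle and valves. LYVE-1 is a receptor for hyaluronan on capillary lymphatic endothelium and on some macrophages, and reelin, the product of Reln, is a secreted glycoprotein best known from cortical layering. Multimerin-1, the product of Mmrn1, is a large secreted protein of the EMILIN family that binds coagulation factor V in platelets, podoplanin (Pdpn) is a mucin-like membrane protein that activates the platelet receptor CLEC-2 and is also made by fibroblasts, and stathmin-2 (Stmn2) is a tubulin-binding protein best known from neurons.

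The aged table held 13969 cell barcodes and the adult one had 7308, and 6977 barcodes stood in both, which is 95.5% of the adult cells. The copies in the aged table carried a median of 0.506 of the unique molecular identifiers (UMIs) of the adult cell with the same barcode. They were left out of the aged library, which leaves 6992 aged cells with a median of 11663.5 UMIs (83509101 in all), against 7308 adult cells with a median of 12087.5 UMIs (90875406 in all). The aged table has no gene names, so a row was given the name that the adult table has at the same place. In the shared barcodes each member's aged row correlated best with its own adult row, at r = 0.965 for Lyve1, 0.968 for Reln, 0.975 for Mmrn1, 0.796 for Pdpn and 0.893 for Stmn2. Levels are given as CPM, that is per 1000000 UMIs of the cell group, with an exact Poisson 95% interval, and shares of cells with an exact Clopper-Pearson 95% interval. A share is also given after each cell was thinned to 3000 UMIs, with shallower cells left out.

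Cells were clustered without the 5 members and named from marker genes. Lymphatic endothelial-like cells numbered 97 in the aged library and 273 in the adult library, with a median of 5493 and 5985 UMIs. They fell into 5 subclusters: capillary lymphatic-like (20 aged and 98 adult cells), collecting lymphatic-like, led by Spp1 and Coch (20 aged and 69 adult cells), and 3 called by their leading genes, Egfem1 and Ptprt (21 aged and 55 adult cells), Fxyd2 and Neo1 (26 aged and 19 adult cells) and Epha5 and Hs3st4 (10 aged and 32 adult cells). Around them lay 305 aged and 392 adult venous-like cells, 73 aged and 174 adult blood capillary-like cells, 38 aged and 63 adult arterial-like cells, 242 aged and 319 adult smooth muscle-like cells and 6203 aged and 6037 adult fibroblast-like cells. The capillary lymphatic name came from Ccl21a, Pard6g, Fxyd6 and Ackr2. Of these, Ccl21a and Pard6g were highest in that subcluster at both ages. Fxyd6 was highest in other lymphatic subclusters, and Ackr2 in fibroblast-like cells in the aged library. Every capillary lymphatic-like cell had a UMI of Prox1 in both libraries. Of the 7 macrophage markers, 2 were detected in these cells, at a summed 121 CPM in aged and 137 CPM in adult cells, with Ptprc, Csf1r, Adgre1, C1qa and C1qb at 0. No doublet caller was run.

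All 5 members reached their highest lymphatic level in the capillary lymphatic-like cells at both ages, and outside them they differed. Lyve1 all but stopped at the capillary subcluster, and Reln continued at a low level into the other lymphatic cells. Mmrn1 and Pdpn extended into the neighbouring subcluster led by Egfem1 and Ptprt, and the larger part of all Pdpn UMIs lay in fibroblast-like cells. Stmn2 had its highest level in arterial-like endothelium, not in a lymphatic cell. Since clusters were made from the same cells, these contrasts are a description and carry no test.

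**Figure D1:**
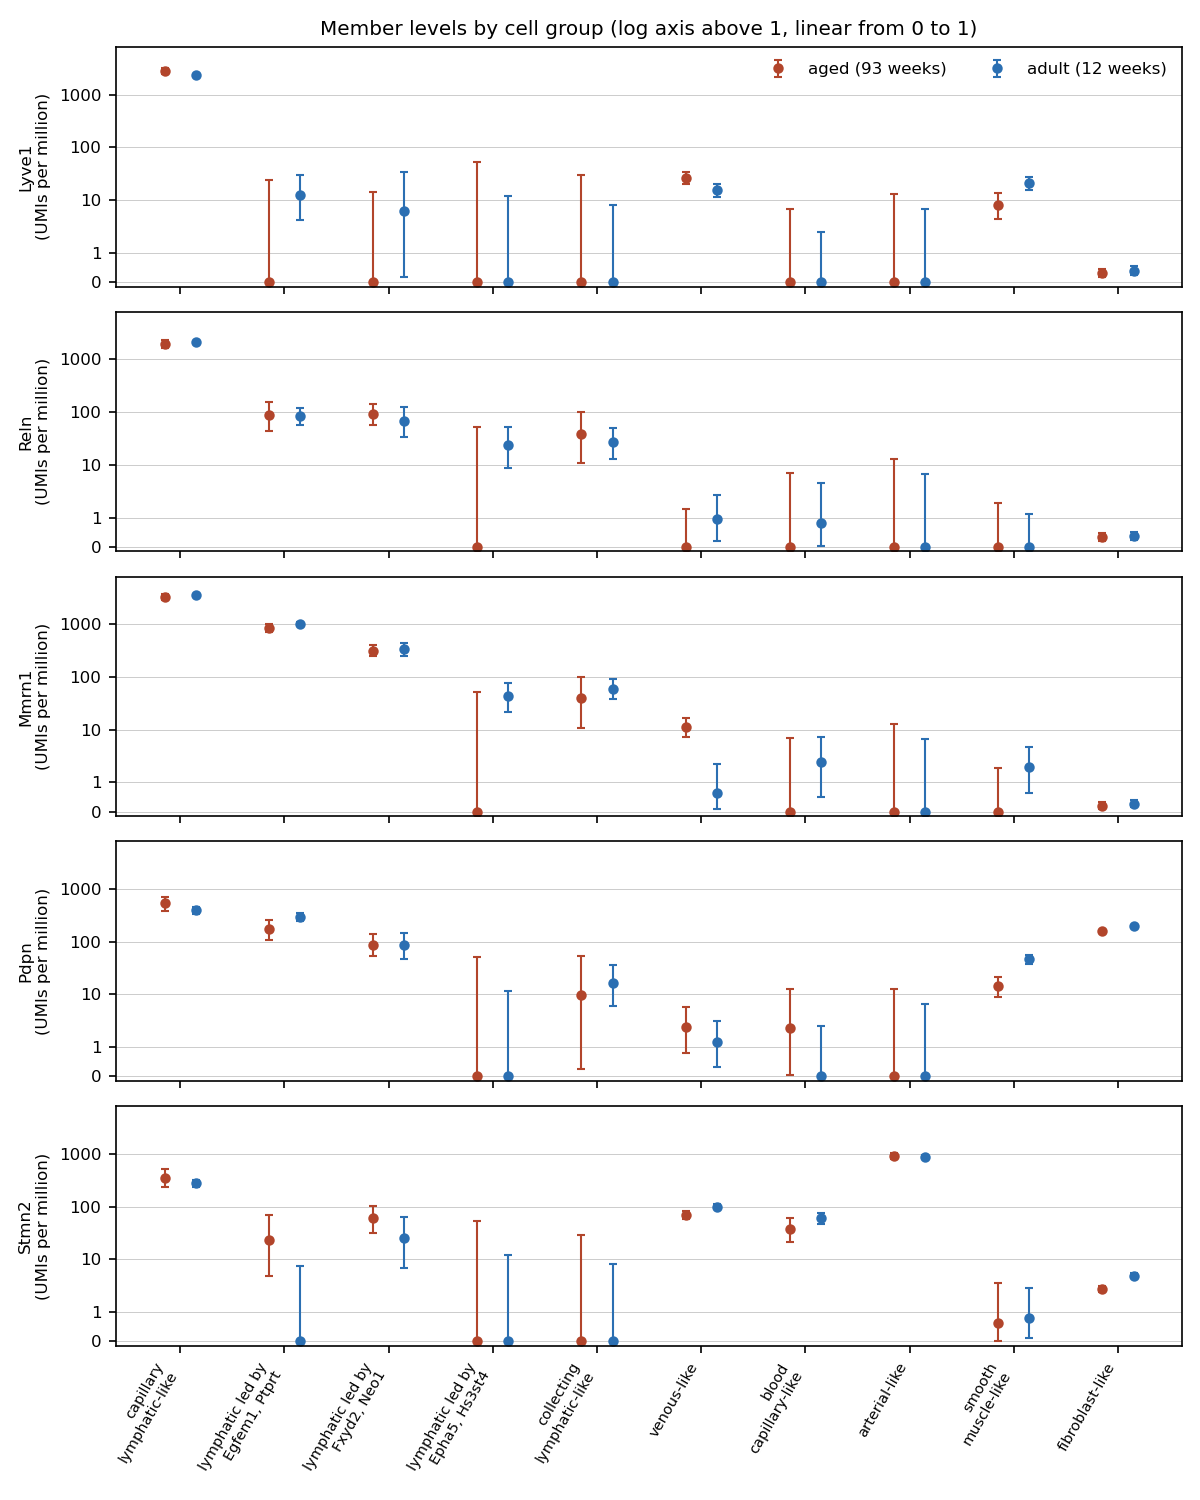
Level of each member (CPM on an axis that is logarithmic above 1 and linear from 0 to 1) in 10 cell groups of the aged and the adult library. Points are sums over the cells of a group and bars are 95% Poisson intervals; at 0 the bar ends at the level that 3 UMIs would give. Lyve1, Reln and Mmrn1 peak in capillary lymphatic-like cells, Pdpn is also high in fibroblast-like cells (157 CPM aged and 198 CPM adult), and Stmn2 is highest in arterial-like cells (923 CPM aged and 873 CPM adult).

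Lyve1, the hyaluronan receptor, was at 2865 CPM (2511 to 3255) in aged and 2350 CPM (2221 to 2484) in adult capillary lymphatic-like cells. It was detected in 19 of 20 aged cells (95%) and 93 of 98 adult cells (94.9%), and after thinning in 93.3% and 93.1% of them. The capillary level was thus higher in the aged library, while the share of positive cells was nearly equal. The intervals were only just apart, the aged one starting at 2511 CPM and the adult one ending at 2484 CPM. The adult level was 2390 CPM in the 84 cells whose barcode is shared with the aged table and 1836 CPM in the other 14. In the 77 aged lymphatic cells outside the capillary subcluster there was no Lyve1 UMI, and in the 175 adult ones there were 6. Of those 6, 5 lay in 1 cell of the subcluster led by Egfem1 and Ptprt, so the gene marked 1 subcluster with almost nothing beyond it. Collecting lymphatic-like cells had none in either library, where 3 UMIs would have given 29.4 CPM in aged and 8.17 CPM in adult cells.

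Lyve1 outside lymphatic endothelium was low but not uniform. Venous-like cells had 26.5 CPM (19.9 to 34.5) in the aged and 15.3 CPM (11.3 to 20.2) in the adult library. A Lyve1 UMI was seen in 34 aged (11.1%, thinned 6.46%) and 28 adult (7.14%, thinned 4.71%) venous-like cells, at median depths of 6452 and 7971.5 UMIs. By contrast, 0 of 73 aged and 0 of 174 adult blood capillary-like cells had one, and arterial-like cells had none, at median depths between 5601 and 6505 UMIs. In fibroblast-like cells, which should lack the gene, the share was 0.322% (thinned 0.0652%) of aged and 0.431% (thinned 0.184%) of adult cells at median depths of 12230 and 13164 UMIs. Smooth muscle-like cells, which should lack it too, were at 8.13 CPM in the aged (5.37% of cells, thinned 1.72%) and 20.9 CPM in the adult library (11.9%, thinned 4.55%). The adult venous-like share thus did not stand apart from that of smooth muscle-like cells. These smooth muscle-like cells also held Prox1, at 7.51 CPM in the aged (4.13% of cells) and 152 CPM in the adult library (7.84%). The part of free RNA or mixed droplets in either class was not tested. Of the Lyve1-positive venous-like cells, 32 of 34 aged and 22 of 28 adult cells also held Prox1, and none held Ptprc, the pan-leukocyte gene, or Ccl21a, the lymphatic chemokine. This holds for Ptprc and Ccl21a only, and not for the macrophage genes C1qa, Csf1r and Mrc1, which were counted as well. Prox1 was common in venous-like cells as a whole, in 90.8% of aged and 80.9% of adult ones. Of all Lyve1 UMIs, 236 of 326 (72.4%) in the aged and 1257 of 1393 (90.2%) in the adult library lay in lymphatic endothelial-like cells.

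Reln, the secreted signal read by Vldlr and Lrp8, was at 1967 CPM (1676 to 2294) in aged and 2115 CPM (1993 to 2242) in adult capillary lymphatic-like cells. It was present in 19 of 20 aged and 98 of 98 adult cells of that subcluster. The intervals of the 2 ages overlap there. Reln was lower but still present in the subcluster led by Egfem1 and Ptprt (86.6 CPM aged and 83.5 CPM adult) and in the one led by Fxyd2 and Neo1 (92.9 CPM aged and 68.6 CPM adult). Collecting lymphatic-like cells held 39.2 CPM in the aged and 27.2 CPM in the adult library, from 4 and 10 UMIs. In the aged library the intervals of these 3 levels overlap, while in the adult library the subcluster led by Egfem1 and Ptprt (57.5 to 117 CPM) lay above the collecting cells (13.1 to 50.1 CPM). After thinning, 15 of 22 aged and 87 of 103 adult Reln-positive lymphatic cells were capillary lymphatic-like. Outside lymphatic cells Reln was near 0: fibroblast-like cells held 0.333 CPM in the aged and 0.356 CPM in the adult library, and smooth muscle-like cells none. Lymphatic endothelial-like cells held 197 of 223 Reln UMIs (88.3%) in the aged and 1186 of 1220 (97.2%) in the adult library.

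Mmrn1, the EMILIN-family protein, was at 3314 CPM (2933 to 3732) in aged and 3612 CPM (3452 to 3777) in adult capillary lymphatic-like cells, in 20 of 20 aged and 97 of 98 adult cells. In the subcluster led by Egfem1 and Ptprt it was at 851 CPM (698 to 1027) in aged and 1010 CPM (913 to 1114) in adult cells, and 18 of 21 aged and 54 of 55 adult cells held it. In the subcluster led by Fxyd2 and Neo1 it was at 316 CPM in aged (17 of 26 cells) and 337 CPM in adult cells (12 of 19 cells). Mmrn1 thus fell off in steps, and each of these 3 levels stood clear of the next by its interval at both ages. Collecting lymphatic-like cells were at 39.2 CPM in the aged (3 of 20 cells) and 59.9 CPM in the adult library (11 of 69 cells), clear of the third step. The subcluster led by Epha5 and Hs3st4 had no Mmrn1 UMI in 10 aged cells and 43.2 CPM in 32 adult cells. The aged venous-like level of 11.3 CPM came from 23 UMIs in a single cell, against 0.624 CPM in adult venous-like cells. Lymphatic endothelial-like cells held 453 of 492 Mmrn1 UMIs (92.1%) in the aged and 2409 of 2440 (98.7%) in the adult library.

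The stretch before the transcription start is shown for the 3 members that RefSeq's promoter table matched (build GRCm38.p6). Each window is the 250 bases before the start that RefSeq lists; 3' libraries do not show which start is used. Capitals mark matches, on either strand, to AACAAT (a core letter run bound by SOX proteins) or GGGCGG (a GC box). TATAAA was searched as well.
Reln: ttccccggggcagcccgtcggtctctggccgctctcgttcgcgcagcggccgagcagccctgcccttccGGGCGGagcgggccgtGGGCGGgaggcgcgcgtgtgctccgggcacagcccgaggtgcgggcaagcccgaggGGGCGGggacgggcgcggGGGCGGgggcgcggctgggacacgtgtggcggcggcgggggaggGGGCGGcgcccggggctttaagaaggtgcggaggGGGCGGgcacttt
Mmrn1: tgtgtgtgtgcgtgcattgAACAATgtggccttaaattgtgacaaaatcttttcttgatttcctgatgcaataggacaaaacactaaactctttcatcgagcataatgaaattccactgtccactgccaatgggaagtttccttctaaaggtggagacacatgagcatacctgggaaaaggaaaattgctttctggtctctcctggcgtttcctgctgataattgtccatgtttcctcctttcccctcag
Pdpn: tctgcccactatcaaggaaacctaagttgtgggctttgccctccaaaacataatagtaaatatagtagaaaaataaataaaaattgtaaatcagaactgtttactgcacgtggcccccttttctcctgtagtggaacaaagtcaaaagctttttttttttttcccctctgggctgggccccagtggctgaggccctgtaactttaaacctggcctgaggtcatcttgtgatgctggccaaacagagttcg
The Reln window (chr5:22344706-22344955, minus strand) is 80.0% G or C and holds 6 matches to GGGCGG. The Mmrn1 window (chr6:60944067-60944316, plus strand) is 42.4% G or C and holds 1 match to AACAAT. The Pdpn window (chr4:143299565-143299814, minus strand) is 43.2% G or C and holds none of the 3 letter runs. Of 32851 RefSeq windows of the same length, 9.42% hold AACAAT, 32.7% GGGCGG and 12.4% TATAAA, and the median G or C content is 52.4%. A match is a run of letters only and says nothing of a factor bound there. The table has no entry that matched Lyve1 or Stmn2.

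Pdpn, the podoplanin gene, was at 534 CPM (388 to 717; 15 of 20 cells) in aged and 393 CPM (341 to 450; 79 of 98 cells) in adult capillary lymphatic-like cells. In the subcluster led by Egfem1 and Ptprt it was at 173 CPM (109 to 262) in aged and 294 CPM (243 to 352) in adult cells. The capillary interval lay above that of the neighbouring subcluster in the aged library, and the 2 intervals touched in the adult library. The subcluster led by Fxyd2 and Neo1 was at 88.2 CPM in aged and 87.2 CPM in adult cells, and the collecting lymphatic-like cells were at 9.81 CPM in the aged and 16.3 CPM in the adult library, from 1 and 6 UMIs. Blood endothelial-like cells, which should lack the gene, had a Pdpn UMI in 1.20% of aged and 0.636% of adult cells at median depths of 6298.5 and 7518 UMIs. Among lymphatic cells, then, the capillary ones held most Pdpn per UMI and the collecting ones little.

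Fibroblast-like cells, not lymphatic ones, held most of the Pdpn transcript: 12272 of 12399 UMIs (99%) in the aged and 16142 of 16626 (97.1%) in the adult library. Lymphatic endothelial-like cells held 0.694% of the Pdpn UMIs in the aged and 2.08% in the adult library. The fibroblast level was 157 CPM (154.5 to 160.1) in aged and 198 CPM (195.3 to 201.5) in adult cells, with the gene in 56.4% (thinned 26.7%) of aged and 67.6% (thinned 32.6%) of adult cells. In smooth muscle-like cells it was at 14.4 CPM in the aged and 46.1 CPM in the adult library. The positive cells there numbered 12 aged and 25 adult, with median depths of 17707.5 and 20505 UMIs, above the class medians of 5563.5 and 6518. Of them, 8 aged (66.7%) and 20 adult cells (80.0%) also held Pdgfra, a fibroblast gene, against 5.22% of aged and 5.44% of adult smooth muscle-like cells without Pdpn. The part that mixed droplets had in this level was not tested.

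Stmn2, the stathmin, had its highest level in arterial-like endothelium, at 923 CPM (804 to 1056) in aged and 873 CPM (789 to 964) in adult cells. It was in 35 of 38 aged (92.1%, thinned 84.8%) and 58 of 63 adult arterial-like cells (92.1%, thinned 86.2%). Capillary lymphatic-like cells came next, at 352 CPM (236 to 506; 9 of 20 cells) in the aged and 274 CPM (232 to 323; 49 of 98 cells) in the adult library. Thinned, 40.0% of aged and 43.7% of adult capillary lymphatic-like cells held it, so at this depth it was found in fewer of these cells than Lyve1, Reln or Mmrn1. Venous-like cells were at 68.2 CPM (22.3% of cells) in the aged and 98.6 CPM (36% of cells) in the adult library, and blood capillary-like cells at 36.9 CPM in the aged and 60.2 CPM in the adult library. Of the other lymphatic subclusters, the collecting cells and those led by Epha5 and Hs3st4 had no Stmn2 UMI at either age. Of the neuronal genes counted, Snap25, Elavl4 and Syt1 were at 0 in the Stmn2-positive arterial-like cells of both libraries. Tubb3 and Prph were counted too, and these zeros do not cover them. Blood endothelial-like cells held 58.4% of Stmn2 UMIs in the aged and 58.8% in the adult library, fibroblast-like cells 34.3% in the aged and 29.8% in the adult library, and lymphatic endothelial-like cells 7.12% in the aged and 11.3% in the adult library. The fibroblast share comes from a small part of a large class, as 1.14% of aged and 2.07% of adult fibroblast-like cells held a Stmn2 UMI. Over the whole class the level was 2.78 CPM in the aged and 4.88 CPM in the adult library.

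Single cells showed the members as nested sets. After thinning, 90 aged and 251 adult lymphatic endothelial-like cells were left, and 16 of the aged (17.8%, 10.5 to 27.3) and 89 of the adult ones (35.5%, 29.5 to 41.7) held 3 or more of the 5 members. All 5 were found in 3 aged and 28 adult cells, 4 of them in 10 aged and 38 adult cells, and none in 40 aged and 92 adult cells. Nearly all of the rich cells were capillary lymphatic-like: each of the 15 aged cells of that subcluster and 85 of the 87 adult ones held at least 3 members, and the other 2 held a pair. Among collecting lymphatic-like cells, 17 of 20 aged and 53 of 62 adult cells held no member. Venous-like cells with 2 or more members were 6 of 294 in the aged and 4 of 382 in the adult library, and none of them held 3. Fibroblast-like cells with 2 or more were 9 of 6137 in the aged and 20 of 5970 in the adult library, although Pdpn alone was common there.

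**Figure D2:**
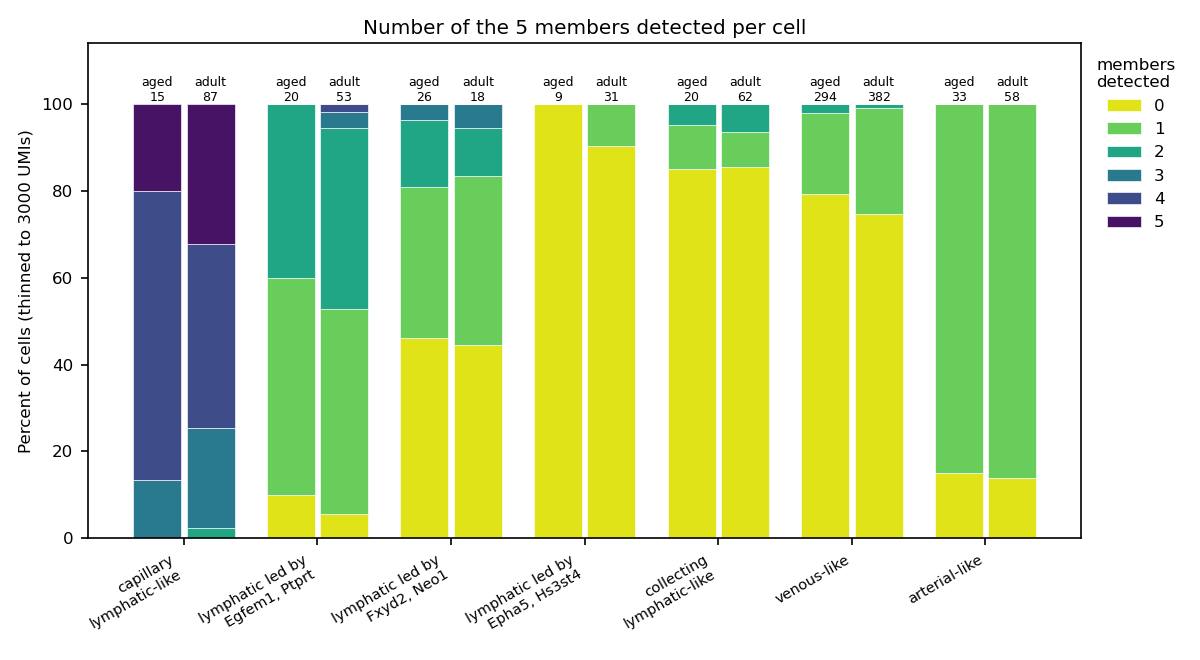
Percent of cells (y axis) holding a given number of the 5 members (0 to 5) after each cell was thinned to 3000 UMIs, in the aged and the adult library, with the number of cells above each bar. In capillary lymphatic-like cells every one of the 15 aged cells held 3 or more members, and 85 of the 87 adult cells did; in collecting lymphatic-like cells most held none.

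The nesting had an order. In the thinned cells every Lyve1-positive lymphatic cell also held Reln and Mmrn1, in 14 of 14 aged and 82 of 82 adult cells. Turned round, 14 of 22 aged and 82 of 103 adult Reln-positive cells held Lyve1, and 14 of 46 aged and 82 of 152 adult Mmrn1-positive cells did. Of the Reln-positive cells, 21 of 22 aged and 101 of 103 adult cells held Mmrn1. Lyve1 cells thus lay inside the Reln cells, and these inside the wider Mmrn1 set. The Pdpn-positive cells sat in the Mmrn1 set too, in 18 of 19 aged and 81 of 85 adult cells. Stmn2-positive lymphatic cells held Mmrn1 in 8 of 10 aged and 38 of 39 adult cells, and held Lyve1 in 5 of 10 aged and 36 of 39 adult cells. The most frequent combination with any member was Mmrn1 alone, in 17 aged (18.9%) and 33 adult cells (13.1%), and Mmrn1 with Pdpn but no other member was seen in 6 aged and 18 adult cells.

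**Figure D3:**
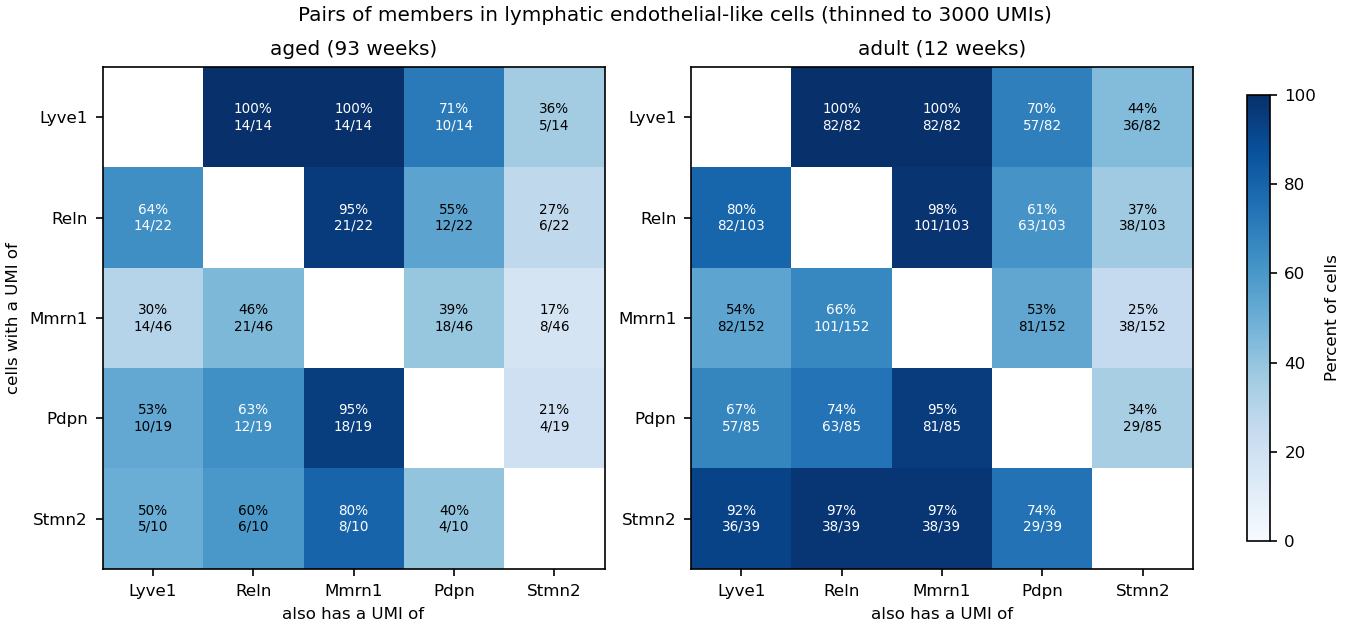
Of the lymphatic endothelial-like cells with a UMI of the row gene, the percent that also held the column gene, with counts, after thinning to 3000 UMIs (aged library at left, adult library at right). The Lyve1 row reads 100% for Reln and Mmrn1 at both ages, while the Mmrn1 row reads 14 of 46 aged and 82 of 152 adult cells for Lyve1.

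Across all lymphatic endothelial-like cells (97 aged and 273 adult), the log-normalised values of Lyve1 and Reln correlated at Pearson r = 0.81 in the aged and 0.87 in the adult library. Within the capillary lymphatic-like cells alone (20 aged and 98 adult) that r was 0.27 in the aged and 0.08 in the adult library. Lyve1 with Mmrn1 went the same way, at 0.68 aged and 0.78 adult over all lymphatic cells, and 0.25 aged and 0.49 adult within the capillary ones. For each of the 10 pairs of members r was lower within the capillary cells than over all lymphatic cells at both ages, though the gap could be small, as for Reln with Mmrn1 in aged cells (0.66 within and 0.76 over all). Over all lymphatic cells r also takes in the difference in level between subclusters, which r within 1 subcluster leaves out. A lower r within the capillary cells is therefore no finding by itself. Cells share a library and differ in depth, so these values describe the cells and carry no test.

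Among 5993 other genes, the ones most like each member across the lymphatic cells were ranked by the mean r of the 2 libraries. For Lyve1 they were Ccl21a, a chemokine that guides dendritic cells into lymphatics (0.93), Piezo2, a stretch-gated channel (0.84), Pcsk6, a proprotein convertase (0.73), and Col4a1, a basement membrane collagen (0.71). For Reln they were Ccl21a (0.87), Piezo2 (0.81), Pcsk6 (0.71) and Flt4, the receptor of VEGF-C (0.68). For Mmrn1 they were Flt4 (0.76), Fgl2, a fibrinogen-like protein (0.76), Ccl21a (0.76) and Abi3bp, a matrix protein (0.67). Mmrn1 and Pdpn had the same 4 leading genes, which Pdpn reached at lower r: Ccl21a (0.57), Flt4 (0.53), Fgl2 (0.52) and Abi3bp (0.51). For Stmn2 they were Ccl21a (0.52), Itih5 (0.51), Prelp (0.47) and Col4a1 (0.45). Across fibroblast-like cells no gene came near Pdpn, the leading one of 8071 being Creb5 at 0.35, which in counts this sparse is no finding.

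Between the ages, the lymphatic endothelial-like cells as 1 class held less of 3 of the 5 members in the aged library by 1.5-fold or more. Over all 6118 genes measured in that class, 9.19% were lower by that much and 7.85% were higher. Reln was at 337 CPM in aged and 694 CPM in adult cells, a log2 ratio of −1.04 (−1.27 to −0.82). Lyve1 was at 404 CPM in aged and 735 CPM in adult cells, a log2 ratio of −0.86 (−1.07 to −0.66). Mmrn1 was at 776 CPM in aged and 1409 CPM in adult cells, a log2 ratio of −0.86 (−1.01 to −0.72). These are log2 ratios of aged over adult on CPM plus 1. Pdpn was lower by less than 1.5-fold, at 147 CPM in aged and 202 CPM in adult cells (−0.45, −0.81 to −0.11). The interval of Stmn2 spanned 0, at 77.0 CPM in aged and 87.7 CPM in adult cells (−0.19, −0.70 to 0.30).

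The make-up of the class differed along with these values. Capillary lymphatic-like cells were 20.6% (13.1 to 30.03) of aged and 35.9% (30.2 to 41.9) of adult lymphatic cells, and those led by Fxyd2 and Neo1 were 26.8% (18.3 to 36.8) of aged and 6.96% (4.24 to 10.7) of adult ones. With the 5 subclusters weighted equally, the log2 ratio was 0.27 for Lyve1, −0.085 for Reln, −0.16 for Mmrn1, 0.028 for Pdpn and 0.54 for Stmn2, so on that weighting no member was 1.5-fold lower in the aged library. The capillary lymphatic-like cells are too few in the aged library for a ratio. Of the 5 members Lyve1 alone had levels there whose intervals did not overlap, higher in the aged library and only just apart. No share of genes with such a gap was computed for this subcluster, so how common it is was not tested. The subcluster led by Fxyd2 and Neo1 also carried fibroblast transcripts, with Dcn at 4508 CPM in aged and 1091 CPM in adult cells. All 6 fibroblast markers were detected in the lymphatic class, summing to 2606 CPM in aged and 297 CPM in adult cells, and in the capillary lymphatic-like cells they summed to 219 CPM in the aged and 143 CPM in the adult library, with Pdgfra at 0 in both. Without the subcluster led by Fxyd2 and Neo1 the log2 ratio was −0.34 for Lyve1, −0.66 for Reln and −0.54 for Mmrn1. Whether the shares changed in the animals or in what the sort and the library captured cannot be told apart with 1 library per age.

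**Figure D4:**
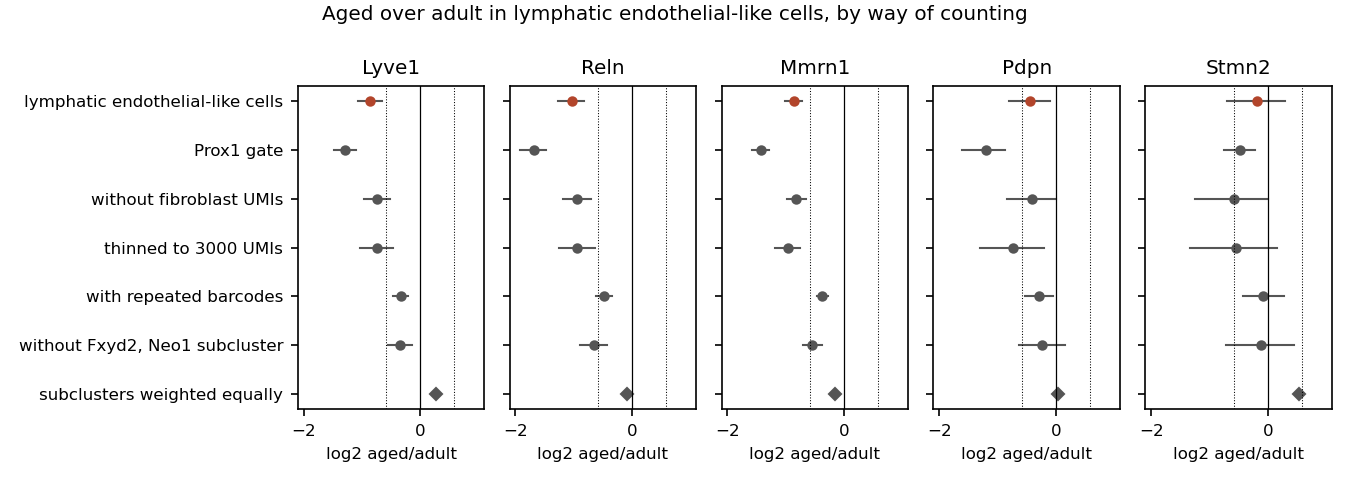
Log2 ratio of aged over adult level (CPM plus 1) of each member in lymphatic endothelial-like cells, as 1 class and under other choices of cells and weights; bars are 95% counting intervals where one exists and dotted lines mark 1.5-fold either way. The class values lie between −1.04 and −0.19, and with subclusters weighted equally they lie between −0.16 and 0.54.

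The shared barcodes bear on these values as follows. Among capillary lymphatic-like cells, the 84 aged-table copies of adult barcodes gave 2348 CPM of Lyve1, 1963 CPM of Reln, 3413 CPM of Mmrn1, 361 CPM of Pdpn and 304 CPM of Stmn2. Their 84 adult originals gave 2390 CPM of Lyve1, 1981 CPM of Reln, 3555 CPM of Mmrn1, 389 CPM of Pdpn and 292 CPM of Stmn2. Copies and originals were thus alike in all 5 members. The 14 adult capillary lymphatic-like cells whose barcode was not shared gave 1836 CPM of Lyve1 and 3827 CPM of Reln at a median of 2516.5 UMIs. Those 2 values rest on 71 UMIs of Lyve1 and 148 of Reln. The same 14 cells gave 4345 CPM of Mmrn1, 440 CPM of Pdpn and 51.7 CPM of Stmn2, the last from 2 UMIs. Against the shared adult cells Lyve1 and Stmn2 thus stood lower and the other members higher. No interval was computed for these differences. With all aged-table cells kept, the ratio over the lymphatic class was −0.33 on the log2 scale for Lyve1, −0.48 for Reln and −0.37 for Mmrn1, none of them 1.5-fold. With the shared barcodes left out on both sides, only 30 adult lymphatic cells remain, too few for a ratio.

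In the other classes fewer members could be compared between the ages, since a gene had to have 50 UMIs in all and be in 10% of the cells of one library. In venous-like cells the log2 ratio of Lyve1 was 0.75 (0.21 to 1.38), but it met that filter through the aged library alone, where it is higher, so the ratio is a description. Of 7069 genes measured there, 7.07% were 1.5-fold or more higher in aged cells and 5.46% lower. Stmn2 was lower in aged venous-like cells by less than that (−0.53, −0.83 to −0.24). In smooth muscle-like cells the ratio of Lyve1 was −1.26 (−2.36 to −0.47), again only a description, since it met the filter through the adult library alone. Of the genes measured in smooth muscle-like cells, 10.4% were lower by 1.5-fold or more and 3.82% higher. Stmn2 in blood endothelial-like cells was at −0.24 (−0.42 to −0.06), short of the 1.5-fold that 5.11% of genes there passed downward and 4.48% upward. In blood capillary-like cells it was past 1.5-fold lower, as were 9.23% of genes measured there (6.95% were higher), but its interval spanned 0 (−0.69, −1.59 to 0.09) and it met the filter through the adult library alone. The Lyve1 ratios of the venous-like cells and of the lymphatic class differ in sign, and the difference between them was not tested.

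Pdpn in fibroblast-like cells was lower in the aged library by less than 1.5-fold, at a log2 ratio of −0.33 (−0.37 to −0.30). Of 8729 genes measured in fibroblast-like cells, 3.68% were lower in aged cells by 1.5-fold or more and 1.79% were higher. Among 12 fibroblast clusters with 50 or more cells in each library the ratio ran between −1.14 and −0.05, below 0 in all 12, with 9 intervals below 0 and 3 that spanned it. The lowest was in the cluster led by Ifi208 and Ptk6, with the interferon-induced Ifit1 and Ifit3 among its leading genes, at 50.3 CPM in aged and 112 CPM in adult cells (−1.14, −1.40 to −0.91). In the cluster led by Frem1 and Enpp2 Pdpn was at 93.7 CPM in aged and 157 CPM in adult cells (−0.74). The value nearest to 0 was in the cluster led by Cxcl2 and Asphd2, at 177 CPM in aged and 183 CPM in adult cells (−0.05). Levels also differed between clusters: the one led by Acsbg1 and Fmod had 30.1 CPM in aged and 41.8 CPM in adult cells, and the one led by Nkain2 and Gabra2 had 219 CPM in aged and 254 CPM in adult cells. With the shared barcodes left out of both tables, 233 adult fibroblast-like cells remain and the ratio turns to 0.14 (−0.11 to 0.41), so the sign rests on barcodes found in both tables. Those 233 cells had a median of 3528 UMIs and 143 CPM of Pdpn, against 199 CPM in the shared adult cells.

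**Figure D5:**
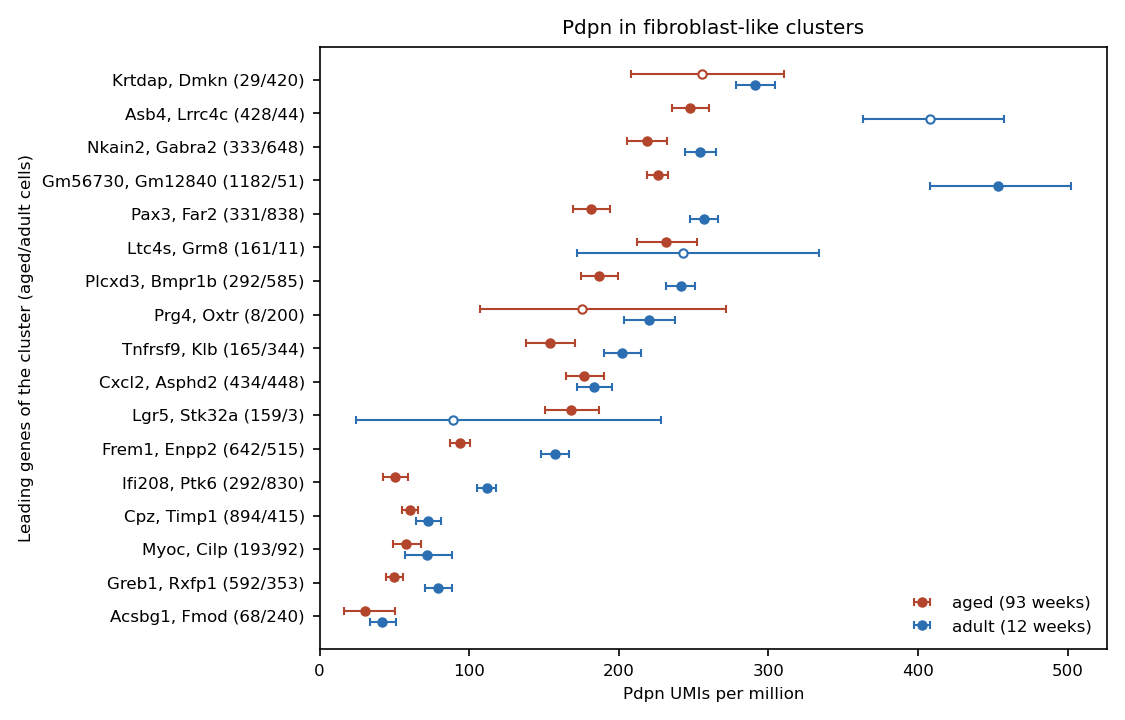
Pdpn level (CPM) in the fibroblast clusters of the aged and the adult library, each cluster called by 2 leading genes with its aged and adult cell numbers; bars are 95% Poisson intervals and open points are groups under 50 cells. In the 12 clusters with 50 or more cells in each library the aged point lies below the adult point.

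The partners of each member were read in the lymphatic endothelial-like cells, where the median log2 ratio of aged over adult was 0.02 over all measured genes. Of 12 reelin pathway genes 8 were measured, with 2 higher, none lower and a median of 0.38, beside the 7.85% higher and 9.19% lower over all 6118 genes. The 2 were Adamts5, a protease that cleaves reelin, at 161 CPM in aged and 43.3 CPM in adult cells (1.87, 1.44 to 2.35), and Vldlr, a reelin receptor, at 37.7 CPM in aged and 21.6 CPM in adult cells (0.77, −0.03 to 1.60). Of 12 hyaluronan genes 4 were measured, with 1 higher (7.85% over all genes), none lower and a median of −0.28. It was Has1, a hyaluronan synthase, at 135 CPM in aged and 19.3 CPM in adult cells (2.75, 2.21 to 3.44). Both Adamts5 and Has1 were in 10% of the cells in the aged library alone, so they were measured through the library in which they are higher, and their calls support nothing. Adamts5, Vldlr and Has1 had their highest level in fibroblast-like cells. There Has1 was at 1158 CPM in aged and 1056 CPM in adult cells, and Vldlr at 82.6 CPM in aged and 75.9 CPM in adult cells. The interval of the Vldlr ratio in the lymphatic class spanned 0. In the capillary lymphatic-like cells Has1 had 1 UMI in the aged and 2 in the adult library. The part of the fibroblast transcripts noted above in these values was not tested. The intracellular adaptor of reelin signalling, Dab1, had no UMI in capillary lymphatic-like cells of either age, and the receptor Lrp8 had 0 UMIs in aged and 4 in adult ones.

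Of 9 EMILIN-family genes and partners 3 were measured, with 1 higher (7.85% over all genes), none lower and a median of −0.06. It was Clec14a, a receptor of multimerin-2 on endothelium, at 65.1 CPM in aged and 35.1 CPM in adult cells (0.87, 0.26 to 1.5). Mmrn2, the nearest relative of Mmrn1, had its highest level in venous-like cells, at 566 CPM in aged and 558 CPM in adult ones. Of 9 podoplanin partners 8 were measured, with none higher, 1 lower (9.19% over all genes) and a median of −0.08. It was Cd82, a tetraspanin, whose interval spanned 0 (−0.71, −1.68 to 0.11). Msn, the moesin that ties podoplanin to actin, was at 445 CPM in aged and 460 CPM in adult cells. Of 3 other stathmins only Stmn1 was measured (0.20), and its highest level lay in collecting lymphatic-like cells, at 441 CPM in aged and 319 CPM in adult ones, where Stmn2 was at 0.

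Of 10 genes listed as other lymphatic capillary genes, Ccl21a, Flt4, Nrp2 and Pard6g had their highest level in capillary lymphatic-like cells at both ages. Ccl21a and Pard6g were among the markers that named this subcluster, so their place there was favoured in advance. Ccl21a and Flt4 were also among the markers that called cells lymphatic. Prox1 and Tbx1 were highest in collecting lymphatic-like cells at both ages, and Sema3d in the subcluster led by Egfem1 and Ptprt. Fxyd6, Nts and, in the aged library, Ackr2 were also highest outside the capillary subcluster. Of the 10, 9 were measured, with none higher, 3 lower and a median of −0.38, beside 9.19% of all measured genes that were lower. Ccl21a was at 1602 CPM in aged and 5352 CPM in adult lymphatic cells (−1.74, −1.84 to −1.64), Pard6g, a polarity protein, at 185 CPM in aged and 382 CPM in adult cells (−1.04, −1.35 to −0.75), and Nrp2, a co-receptor of VEGF-C, at 245 CPM in aged and 387 CPM in adult cells (−0.66, −0.93 to −0.40). Within the capillary lymphatic-like cells these 3 also stood lower in the aged library, with intervals that did not overlap for Ccl21a and Pard6g. How common such gaps are over all genes of this subcluster was not tested, so the values here are a description. Ccl21a was at 11194 CPM (10483 to 11940) in aged and 16879 CPM (16532 to 17232) in adult capillary lymphatic-like cells. Pard6g was at 449 CPM (316 to 619) in aged and 813 CPM (739 to 894) in adult ones. Nrp2 was at 571 CPM (419 to 759) in aged and 810 CPM (735 to 890) in adult ones. Prox1 was also lower there, at 4917 CPM (4450 to 5420) in aged and 6841 CPM (6621 to 7067) in adult ones. Flt4 and Nts, which encodes neurotensin, went the other way, with intervals apart for each. Flt4 was at 1251 CPM (1021 to 1517) in aged and 905 CPM (826 to 990) in adult ones. Nts was at 996 CPM (792 to 1236) in aged and 507 CPM (448 to 571) in adult ones.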

How the data were processed

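The deposited tables hold 1 value per gene and cell, which the authors gave as the natural log of 1 plus UMIs scaled to 10000 per cell, as read from the values; undoing that gave whole UMIs for every value within 0.01, and these counts were used. Per the submitters' processing notes Seurat 5.0.3 was used and the builds GRCm39 and mm10 are named; aligner and sort gate: not given in the sources used here. Aged rows were named by the adult row order, and aged barcodes that also stand in the adult table were left out. Cells were clustered with Leiden (igraph 0.11.9; 2000 variable genes without the members, 30 components, 15 neighbours, resolution 1, endothelium again at 0.5). Clusters were named where markers of a list averaged at least 1 on the log2 scale over the rest, and an endothelial subcluster was called lymphatic at 4 or more. These thresholds were set after seeing the data, and the members and gene lists were chosen with earlier results of these data known. UMIs were summed per class and library; the log2 ratio of CPM plus 1 carries an exact conditional binomial interval at 95%. A ratio needed 50 cells in each library, and 1.5-fold counted as different. The ratio and its interval were run on simulated Poisson counts. These hold no spread between cells, mice or libraries, so the run checks the calculation only. Genes named beside the members were the 4 most like each by mean r and the members of 6 pathway lists. Alternatives covered shared barcodes, gates, resolution, depth, weighting, added CPM and filters. Promoter windows came from RefSeq (GRCm38.p6). Python 3.11.15, numpy 2.4.6, scipy 1.17.1 and pandas 2.3.3 were used.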

Additional observations from a re-analysis of the deposited data

Results flagged for a closer look

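The Lyve1 ratios of 2 classes of endothelium differ in sign. The log2 ratio of aged over adult was −0.86 in lymphatic endothelial-like cells and 0.75 in venous-like cells. The venous-like value is of a gene in 11.1% of aged and 7.14% of adult cells, so it met the 10% filter through the aged library alone, where it is higher. The lymphatic value turns to 0.27 with subclusters weighted equally, and in capillary lymphatic-like cells Lyve1 was at 2865 CPM in aged and 2350 CPM in adult cells. The difference between the 2 ratios was not tested.

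Signal of every member was also present in data that the comparisons leave out. The aged table holds, under barcodes that also stand in the adult table, 654 UMIs of Lyve1, 525 of Reln, 1106 of Mmrn1, 8075 of Pdpn and 705 of Stmn2. The adult cells with those barcodes hold 1320 UMIs of Lyve1, 1070 of Reln, 2256 of Mmrn1, 16482 of Pdpn and 1301 of Stmn2. The ratio of copy to original was 0.495 for Lyve1, 0.491 for Reln, 0.490 for Mmrn1, 0.490 for Pdpn and 0.542 for Stmn2, close to the median of 0.506 over all UMIs of a cell.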

How the results depend on the processing

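Of 80 alternative values, 53 stayed close to the reported value (within its counting error, or 1.5 times for gene counts) and 27 did not, of which 6 changed sign. Some of the 53 could hardly move, so that count says little of robustness. Resolution 2 returned the same 97 aged and 273 adult lymphatic cells. With 0.1 CPM added in place of 1 the Lyve1 ratio stayed at −0.86. In lymphatic endothelial-like cells the log2 ratio of aged over adult became, with all deposited cells, −0.33 for Lyve1, −0.48 for Reln and −0.37 for Mmrn1. With a gate on Prox1 and Pecam1 or Cdh5 UMIs it became −1.28 for Lyve1, −1.69 for Reln, −1.43 for Mmrn1 and −1.20 for Pdpn. That gate takes 366 aged and 564 adult cells, of which 273 aged and 318 adult cells are blood endothelial-like. With subclusters weighted equally it became 0.27 for Lyve1, −0.085 for Reln, −0.16 for Mmrn1, 0.028 for Pdpn and 0.54 for Stmn2. Leaving out subclusters was chosen after seeing the data. Without the one led by Fxyd2 and Neo1 it became −0.34 for Lyve1, −0.66 for Reln and −0.54 for Mmrn1. Without the capillary lymphatic-like one it became 0.45 for Reln, −0.20 for Mmrn1 and 2.90 for Stmn2, on few UMIs; Lyve1 had 0 aged and 6 adult UMIs and no ratio. The share of cells with 3 or more members became 4.58% in aged and 15.4% in adult cells under the gate. Pdpn in fibroblast-like cells became −0.23 with all deposited cells, 0.14 without the shared barcodes and −0.39 with clusters weighted equally. The count of genes 1.5-fold or more higher in aged lymphatic cells became 3327 without a filter and 82 with all deposited cells, against 480, and of those lower 4881 and 103, against 562. The sign changes are the positive ratios given above. The cause of these moves was not tested.

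The lymphatic ratios were not run in cells called female (43 aged and 138 adult) or male (37 aged and 97 adult), nor without the shared barcodes, since a group then falls under 50 cells. No paired analysis was possible because each age is 1 pooled library, and there was no replicate to leave out. Depth limits what a 0 means: in the 20 aged collecting lymphatic-like cells 3 UMIs would give 29.4 CPM.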

Other observations

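Cells were also split by the sex their own transcripts call, since each library pools 6 mice. In capillary lymphatic-like cells called female Lyve1 was at 3206 CPM in 7 aged and 2354 CPM in 53 adult cells, and in those called male at 2724 CPM in 10 aged and 2093 CPM in 32 adult cells. Mmrn1 in the same cells was at 4574 CPM in aged and 3845 CPM in adult cells called female, and at 2575 CPM in aged and 3275 CPM in adult cells called male. Stmn2 in fibroblast-like cells was at 5.07 CPM in aged and 6.04 CPM in adult cells called female, and at 1.1 CPM in aged and 2.72 CPM in adult cells called male. These are values of single pools and no test was made.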
